A study of Mus musculus with 9 samples.

Results

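Sarcomere and contractile genes are described here as a set of 49 genes named by symbol: the myosin heavy and light chains, actins, tropomyosins, troponins, titin, nebulin, M-band and Z-disc proteins, filament assembly factors and muscle creatine kinase. Each of the 49 had 1 probe set among the 24011 genes measured. The filter on dim genes left 47 of them among 17142 genes tested. The slow light chain gene Myl3, at 2.88 to 3.26 on the log2 scale, and the fast myosin-binding protein gene Mybpc2, at 3.62 to 4.24, were not tested.

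The measurements came from 9 Affymetrix arrays of mouse primary myoblasts, the dividing descendants of satellite cells, taken from skeletal muscle. Cells were moved from growth medium with 20% fetal bovine serum to 2% horse serum, which lets myoblasts differentiate, and RNA was taken after 24 h. The 3 groups, with 3 arrays each, were mock-treated controls, cells given recombinant BMP4 at 100 ng/ml and cells given recombinant GREM1 at 500 ng/ml. No genetic change is labelled in any group, and the sources used here do not give the strain, sex or age of the mice. BMP4 is a growth factor of the TGF-beta superfamily, and GREM1 is an extracellular antagonist of BMP ligands. Whether replicates were separate cultures is not labelled, so the p-values cover only the spread among these arrays, which may be technical.

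The sarcomere is the contractile unit of striated muscle, in which thick filaments of myosin slide along thin filaments of actin. Thin filaments are anchored in the Z-disc and thick filaments are linked in the M-band, while titin spans from one to the other, and calcium binding to troponin moves tropomyosin off the myosin binding sites. Developing muscle uses embryonic and neonatal isoforms of several of these proteins before adult fast or slow isoforms take over, and transcription of many sarcomere genes depends on MyoD family factors at E-boxes, on MEF2 factors and on SRF at CArG boxes.

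The promoters of 3 genes called in the comparisons below are shown first, although Myh4 was dim in every group. Each is given as the 250 bases before the annotated start in RefSeq (GRCm38.p6), 5′ to 3′ on the plus strand. That is the coding strand of all 3. Capitals mark matches to the E-box CANNTG, to the MEF2 consensus and to the CArG consensus, searched on both strands. No match overlapped another. They are Ckm (muscle creatine kinase, chr7:19410844-19411093), Unc45b (a myosin chaperone, chr11:82911003-82911252) and Myh4 (the fast type IIb myosin heavy chain, chr11:67237562-67237811).
Ckm: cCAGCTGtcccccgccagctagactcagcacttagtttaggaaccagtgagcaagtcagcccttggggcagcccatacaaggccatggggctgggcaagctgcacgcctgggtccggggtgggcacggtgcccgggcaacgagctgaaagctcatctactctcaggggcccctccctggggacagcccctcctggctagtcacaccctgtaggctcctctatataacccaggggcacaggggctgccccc
Unc45b: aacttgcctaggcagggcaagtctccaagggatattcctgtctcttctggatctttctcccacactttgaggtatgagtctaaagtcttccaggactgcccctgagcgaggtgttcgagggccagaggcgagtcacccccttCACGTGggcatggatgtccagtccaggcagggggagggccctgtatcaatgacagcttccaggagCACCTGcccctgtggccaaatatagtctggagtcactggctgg
Myh4: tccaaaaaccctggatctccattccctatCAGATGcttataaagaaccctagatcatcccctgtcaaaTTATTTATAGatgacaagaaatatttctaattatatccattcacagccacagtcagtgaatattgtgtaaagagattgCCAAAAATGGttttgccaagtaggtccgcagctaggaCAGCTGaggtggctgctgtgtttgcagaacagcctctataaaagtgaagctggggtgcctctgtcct

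The Ckm window held 1 E-box, at -249 to -244 from the start, and the Unc45b window held 2, at -108 to -103 and at -43 to -38. Myh4 held 2 E-boxes, at -221 to -216 and -67 to -62, a MEF2 match at -182 to -173 and a CArG match at -104 to -95. RefSeq promoters were matched for 39 of the 49 genes, 46 promoters in all. Of these, 39 (84.8%) held an E-box, against 66.2% of all 32851 promoters in the table. MEF2 matches were in 7 (15.2%, against 2.92%) and CArG matches in 7 (15.2%, against 1.47%). A match describes letters in this window and was not tested as a binding site. Sites that depart from a consensus by even a single letter were not counted, so a window without a match may hold such a site.

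Array medians over the probe sets with 1 gene symbol lay between 4.998 and 5.117, so the arrays were on a common scale. Of 10 myogenic markers 9 passed the filter, as did 5 of 9 fibroblast markers (among them Col1a1, Col3a1 and Thy1), 9 of 11 of smooth muscle and pericytes (among them Myh11 and Acta2), 6 of 8 of heart and 5 of 8 of endothelium and leukocytes (among them Pecam1 and Cd68). Those below it included Pdgfra, Dcn, Lum and Dpt of fibroblasts, Cnn1 of smooth muscle, Kdr and Tek of endothelium and Ptprc of leukocytes. Of all 24011 genes 17142 passed the filter, so these counts alone do not tell which cells were present. Replicate 3 stood apart for the sarcomere genes in every group. It was the lowest array for 41 of 47 genes in the controls (87.2%), for 44 with BMP4 (93.6%) and for 39 with GREM1 (83.0%), against 32.8%, 33.3% and 35.0% of all genes tested. The median deviation of the 47 genes from their control means was 0.092, 0.27 and -0.36 in control replicates 1 to 3. It was 0.22, 0.31 and -0.37 with BMP4 and 0.41, 0.41 and 0.22 with GREM1. The controls and the BMP4 arrays therefore spread far more for these genes than the GREM1 arrays did, with median standard deviations (SD) of 0.35 and 0.37 against 0.11, where all genes tested had 0.14, 0.12 and 0.12. Over all genes tested, deviations from the group means correlated between groups at 0.423 to 0.58 for replicate 3. For replicate 2 they did so at only 0.088 to 0.17, which some arrays of unlike number exceeded. Values are also given from a fit with the number as a block, which compares arrays of the same number. The median standard error (SE) of a difference for the 47 genes was 0.22 without that block and 0.11 with it.

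**Figure D1:**
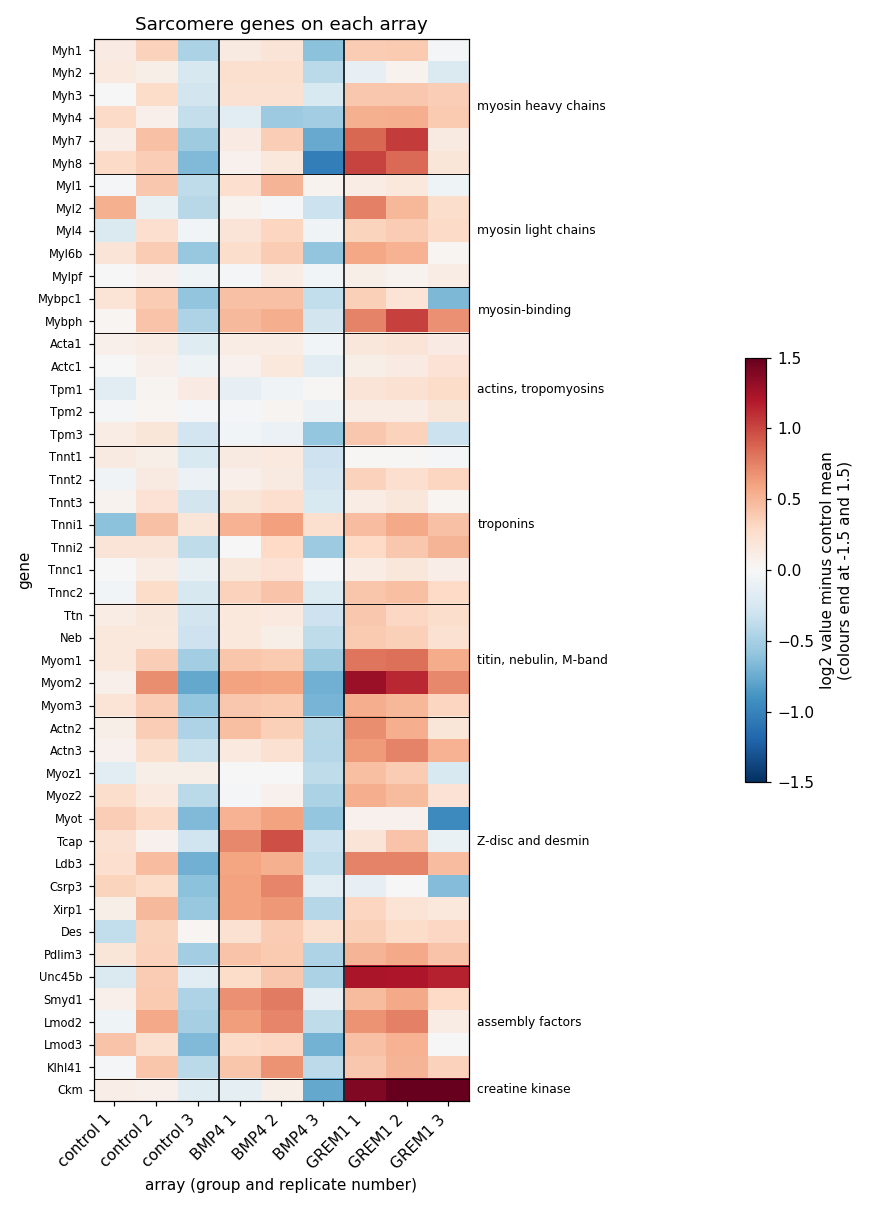
Colours give the log2 value of each of the 47 tested genes (vertical axis, grouped by role) minus its control mean on each of the 9 arrays (horizontal axis). Replicate 3 is the blue column among the controls and with BMP4, where the median deviations are -0.36 and -0.37, and Ckm and Unc45b are red on all 3 GREM1 arrays.

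With GREM1, 2 of the 47 genes rose and 0 fell. These were Ckm, by 1.70 ± 0.22 (SE, log2), and Unc45b, by 1.20 ± 0.23. Counted at an unadjusted p under 0.05 in limma, 11 were higher and 0 lower, against 1576 and 1845 of all 17142 genes. At the adjusted threshold 4.26% were called higher, against 2.07% of all genes tested. Of all genes, 2.21% were called lower and 4.28% in either direction. With the replicate block 14 rose (29.8%, against 5.58% of all genes) and 0 fell, where 6.0% of all genes fell and 11.6% passed in either direction. With the block and without replicate number 1, 2 or 3, 5, 9 and 3 rose. The 47 differences had a median of 0.33, the same as over all 49 genes, and ran from -0.27 to 1.70, against a median of -0.0057 over all genes tested. Without control replicate 3 the median was 0.22. Of the 47, 43 were above 0, and the 4 below were Myh2, Mybpc1, Csrp3 and Myot. All 3 GREM1 arrays lay above all 3 controls for 20 genes (42.6%, against 11.3% of all genes) and below them for 0 (against 12.7%). In bulk RNA, a larger share of differentiating cells and more RNA per cell cannot be told apart.

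With BMP4, 0 of the 47 genes passed, also with the replicate block. At an unadjusted p under 0.05 limma had 0 higher and 1 lower, Myh4, against 691 and 684 of all 17142 genes. Of all genes tested, 0.117% passed, 0.0933% higher and 0.0233% lower, and with the block 0.379% did, 0.303% higher and 0.0758% lower. The median was 0.060 and the range -0.41 to 0.46. No gene had BMP4 arrays clear of the controls, where 5.31% of all genes were clear above and 5.9% clear below. The median was 0.25 without BMP4 replicate 3 and 0.17 without control replicate 2, and it was -0.027 and -0.056 without BMP4 replicates 1 and 2 and -0.094 without control replicate 3, so its sign depended on single arrays. Within replicate numbers, 17 of the 47 (36.2%, against 17.3% of all genes) were higher with BMP4 in all 3 and 4 (8.51%, against 16.9%) lower in all 3.

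In the direct comparison 3 genes were lower with BMP4 than with GREM1, Myh4, Ckm and Unc45b (6.38%, against 2.83% of all genes), and 0 were higher (against 3.62%, or 6.45% in either direction). Of these Myh4 had BMP4 values below the filter level, and under the stricter filter, which leaves Myh4 out, 2 were lower. The median was -0.33, with 7 genes above 0 and 40 below. Without BMP4 replicate 3 it was -0.073. The BMP4 arrays lay below the GREM1 arrays for 18 genes (38.3%, against 12.2%) and above them for 0 (against 12.3%). This comparison and that with control use the same GREM1 arrays.

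**Figure D2:**
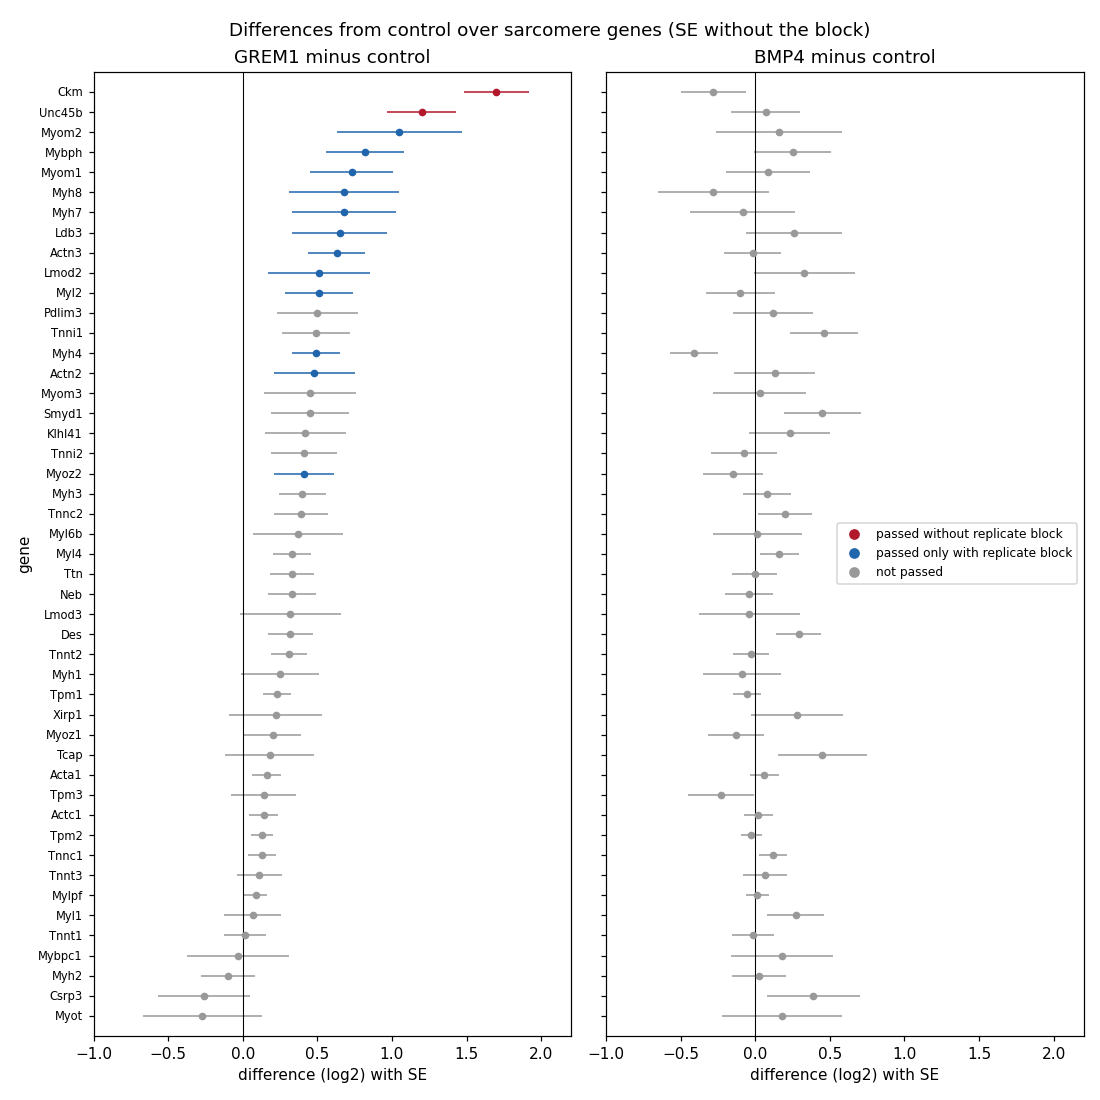
Points give each gene's log2 difference with its SE, with GREM1 minus control on one panel and BMP4 minus control on the other, over the same 47 genes. Ckm (1.70) and Unc45b (1.20) lie to the right of the other genes with GREM1, and the BMP4 differences stay between -0.41 and 0.46.

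Ckm, muscle creatine kinase, binds the M-band and regenerates ATP beside the myosin heads. It was at 6.80, 6.77 and 6.52 in the controls, at 6.55, 6.78 and 5.93 with BMP4 and at 8.09, 8.39 and 8.71 with GREM1. The GREM1 arrays stood well clear of the other 6, which overlapped. The rise with GREM1 was 3.25-fold (adjusted p = 0.00433, limma, and 0.00205 to 0.0268 over the alternatives). With BMP4 Ckm differed from control by -0.28 (adjusted p = 0.771). It was 3.93-fold lower with BMP4 than with GREM1 (adjusted p = 7.68e-04). Within replicate numbers 1 to 3 the GREM1 difference was 1.29, 1.62 and 2.19, so the array low for most sarcomere genes had the highest Ckm value.

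Unc45b folds the myosin motor domain and is needed for thick filament assembly. Its values were 5.82, 6.42 and 5.88 in the controls, 6.32, 6.44 and 5.56 with BMP4 and 7.27, 7.25 and 7.19 with GREM1. All GREM1 arrays were above all others, and the BMP4 arrays overlapped the controls. The rise was 2.30-fold (adjusted p = 0.0222, and 0.00414 with the block). It did not pass without control replicate 1 or 3, or without any 1 of the GREM1 arrays, where adjusted p was 0.0559 to 0.0854. The difference from control with BMP4 was 0.069. Unc45b was lower with BMP4 than with GREM1 by 1.13 on the log2 scale (adjusted p = 0.0186, and 0.0733 and 0.0698 without GREM1 replicates 1 and 2).

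Myosin heavy chains, the motors of the thick filament, had a median difference of 0.44 with GREM1 over 6 genes. With the block 3 of the 6 rose (50.0%, against 5.58% of all genes). Myh4, the fast type IIb isoform, was at 4.41, 4.20 and 3.77 in the controls, 3.97, 3.58 and 3.61 with BMP4 and 4.66, 4.67 and 4.52 with GREM1. The filter level was 3.886 to 4.018 on the arrays, and 3 GREM1, 2 control and 0 BMP4 arrays of Myh4 lay above it. Myh4 was thus dim in every group and had no well measured level with BMP4. The GREM1 arrays were above all others. Its difference from control was 0.49 ± 0.16 with GREM1 (adjusted p = 0.13, and 0.0296 with the block) and -0.41 ± 0.16 with BMP4 (adjusted p = 0.598). Between the treatments the fit called it lower with BMP4 (adjusted p = 0.0119), for which no fold is given. That call was lost without BMP4 replicate 2 and GREM1 replicates 1 and 2 in turn (adjusted p = 0.0512, 0.0547 and 0.0532), and the stricter filter removed the gene.

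Myh7, the slow chain also used in heart, was at 7.76, 8.10 and 7.13 in the controls, 7.79, 8.03 and 6.91 with BMP4 and 8.52, 8.71 and 7.80 with GREM1. The groups overlapped, with replicate 3 low in each and an SD of 0.49 in the controls, 0.59 with BMP4 and 0.48 with GREM1. Compared within numbers, GREM1 differed by 0.77, 0.61 and 0.67, a narrow range, and the rise of 0.68 passed with the block (adjusted p = 0.312 without it, 0.00208 with it). Myh8, the perinatal chain, was at 9.58, 9.66 and 8.63 in the controls, 9.35, 9.45 and 8.25 with BMP4 and 10.30, 10.14 and 9.47 with GREM1. Here too replicate 3 was lowest in each group, and the rise of 0.68 passed with the block (adjusted p = 0.354 and 0.00539). Myh3, the embryonic chain, was at 11.47, 11.73 and 11.18 in the controls, 11.69, 11.69 and 11.23 with BMP4 and 11.87, 11.87 and 11.83 with GREM1. The GREM1 arrays were above all others, but the difference of 0.40 did not pass (adjusted p = 0.198, and 0.0539 with the block). The adult fast chains Myh1 (type IIx) and Myh2 (type IIa) differed by 0.25 and -0.098 and did not pass. Myh3, Myh2, Myh1, Myh4 and Myh8 are neighbours on chromosome 11 in RefSeq, and their differences with GREM1 thus ran from -0.098 to 0.68 along 1 cluster.

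**Figure D3:**
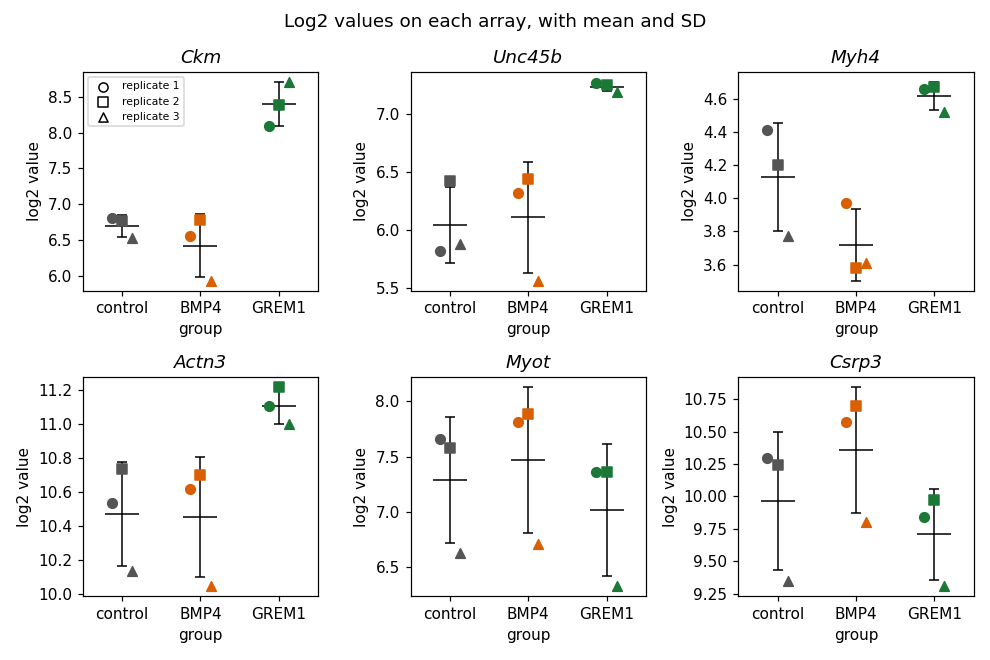
Log2 values on each array (points, with a shape for each replicate number, and lines for the mean and SD) for Ckm, Unc45b, Myh4, Actn3, Myot and Csrp3 in the 3 groups. The GREM1 values of Ckm, Unc45b, Myh4 and Actn3 lie above every control value, and those of Myot and Csrp3 overlap the controls.

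Myosin light chains and binding proteins steady the thick filament. Of 5 light chains tested, with a median of 0.33, 1 rose (20.0%, against 5.58% of all genes), with the block alone, the slow regulatory chain Myl2. It was at 7.71, 7.07 and 6.76 in the controls, 7.23, 7.15 and 6.86 with BMP4 and 7.94, 7.68 and 7.44 with GREM1. GREM1 arrays overlapped control replicate 1 alone, and the difference was 0.51 (adjusted p = 0.253, and 0.0286 with the block). The embryonic light chain Myl4 was at 10.38, 10.85 and 10.55 in the controls, 10.79, 10.92 and 10.54 with BMP4 and 10.93, 10.97 and 10.88 with GREM1. Its GREM1 arrays were just clear of the controls, and the difference of 0.33 did not pass (adjusted p = 0.2). Mybph, myosin-binding protein H, was at 10.50, 10.90 and 10.01 in the controls, 10.96, 11.02 and 10.19 with BMP4 and 11.21, 11.50 and 11.15 with GREM1. GREM1 arrays exceeded all others, and the rise of 0.82 passed with the block (adjusted p = 0.11 and 0.00679). Mybpc1, the slow myosin-binding protein C, was at 8.44, 8.62 and 7.65 in the controls, 8.68, 8.68 and 7.87 with BMP4 and 8.59, 8.44 and 7.56 with GREM1. Its groups overlapped throughout, with a difference of -0.033.

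The 5 actin and tropomyosin genes of the thin filament had a median difference of 0.14 between GREM1 and control, and 0 passed in that comparison, with or without the block. Tpm1, an alpha-tropomyosin, was at 10.52, 10.73 and 10.81 in the controls, 10.56, 10.63 and 10.70 with BMP4 and 10.88, 10.92 and 10.96 with GREM1. The GREM1 arrays were above all others by a small margin (difference 0.23, adjusted p = 0.19). Tpm2 was at 11.54, 11.58 and 11.54 in the controls, 11.53, 11.59 and 11.47 with BMP4 and 11.66, 11.66 and 11.74 with GREM1, a difference of 0.13 (adjusted p = 0.349). Tpm3 was at 8.03, 8.10 and 7.64 in the controls, 7.88, 7.84 and 7.34 with BMP4 and 8.33, 8.27 and 7.60 with GREM1. In Tpm3 replicate 3 was low in each group and the groups overlapped. Acta1 and Actc1, the skeletal and cardiac alpha-actins, differed by 0.16 and 0.14 and did not pass.

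The 7 troponin genes, which carry the calcium switch, had a median of 0.31 between GREM1 and control, and 0 passed with or without the block. Tnnt2, the cardiac troponin T that developing skeletal muscle also uses, was at 12.06, 12.25 and 12.03 in the controls, 12.19, 12.25 and 11.83 with BMP4 and 12.46, 12.37 and 12.44 with GREM1. Its GREM1 arrays were above all others (difference 0.31, adjusted p = 0.18). Tnnc2, fast troponin C, was at 11.39, 11.71 and 11.19 in the controls, 11.78, 11.86 and 11.23 with BMP4 and 11.85, 11.88 and 11.73 with GREM1, with GREM1 clear of the controls (difference 0.39, adjusted p = 0.258). Tnni1, slow troponin I, was at 9.93, 10.98 and 10.72 in the controls, 11.06, 11.16 and 10.78 with BMP4 and 11.01, 11.11 and 10.98 with GREM1. Control replicate 1 was far below the other 8 arrays, and the differences were 0.49 with GREM1 and 0.46 with BMP4. The remaining troponins were Tnnt1, Tnnt3, Tnni2 and Tnnc1, with differences of 0.013 to 0.41.

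Some of these genes were near the top of the scale. Mylpf, the fast regulatory light chain, Acta1, Actc1, Tnnt2 and Tnnc1 lay within 1 log2 unit of the highest value of every array, which was 12.534 to 12.705. Their differences with GREM1 were 0.087 to 0.31 (median 0.14), against a median of 0.40 and a range of -0.27 to 1.70 over the other 42. Whether the top of the array's range limited them was not tested.

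Titin, nebulin and the M-band genes had a median of 0.45 with GREM1 over 5 genes. With the block 2 of the 5 rose, where 5.58% of all genes tested rose. Myom2, the fast-fibre M-band protein, was at 7.84, 8.46 and 6.99 in the controls, 8.37, 8.36 and 7.04 with BMP4 and 9.06, 8.90 and 8.48 with GREM1. The GREM1 arrays were above every other array by a narrow margin at control replicate 2, and the rise of 1.05 passed with the block (adjusted p = 0.199 and 0.0121). Myom1, which cross-links myosin in the M-band, was at 8.82, 9.02 and 8.13 in the controls, 9.07, 9.05 and 8.12 with BMP4 and 9.46, 9.48 and 9.21 with GREM1. Its GREM1 arrays also stood clear, and the rise of 0.73 passed with the block (adjusted p = 0.187 and 0.0138). Neb, nebulin, the ruler along the thin filament, was at 11.34, 11.34 and 10.88 in the controls, 11.34, 11.27 and 10.81 with BMP4 and 11.58, 11.54 and 11.42 with GREM1. It was clear of the controls with a difference of 0.33 (adjusted p = 0.299, and 0.0577 with the block). Ttn and Myom3 differed by 0.33 and 0.45 and did not pass.

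Z-disc genes, 11 with desmin, had a median of 0.32, and 4 rose with the block (36.4%, against 5.58% of all genes). Actn3, the fast-fibre alpha-actinin, was at 10.54, 10.74 and 10.14 in the controls, 10.62, 10.70 and 10.05 with BMP4 and 11.11, 11.22 and 11.005 with GREM1. The GREM1 arrays were above all others, and the rise of 0.63 passed with the block (adjusted p = 0.1 and 0.00742) and without BMP4 replicate 3 (0.0454). Actn2, the alpha-actinin of all striated fibres, was at 9.998, 10.28 and 9.45 in the controls, 10.36, 10.27 and 9.49 with BMP4 and 10.61, 10.46 and 10.09 with GREM1. Its GREM1 and control arrays overlapped, and the rise of 0.48 passed with the block (adjusted p = 0.357 and 0.0311). Ldb3, a PDZ-LIM adaptor of alpha-actinin, was at 9.71, 9.92 and 8.73 in the controls, 10.05, 9.99 and 9.09 with BMP4 and 10.20, 10.20 and 9.92 with GREM1. GREM1 replicate 3 equalled control replicate 2 to 2 decimals, and the rise of 0.65 passed with the block (adjusted p = 0.3 and 0.0336). Myoz2, which tethers calcineurin at the Z-disc in slow fibres, was at 9.57, 9.46 and 8.90 in the controls, 9.28, 9.38 and 8.83 with BMP4 and 9.85, 9.79 and 9.53 with GREM1. GREM1 replicate 3 lay among the controls, and the rise of 0.41 passed with the block (adjusted p = 0.285 and 0.0259). Des, the desmin filament around the Z-discs, was at 10.68, 11.38 and 11.08 in the controls, 11.27, 11.43 and 11.29 with BMP4 and 11.40, 11.32 and 11.36 with GREM1, and its groups overlapped (difference 0.32, adjusted p = 0.282).

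Myot and Csrp3 had the opposite sign. Myot, myotilin, which cross-links actin at the Z-disc, was at 7.66, 7.58 and 6.63 in the controls, 7.81, 7.89 and 6.71 with BMP4 and 7.36, 7.36 and 6.33 with GREM1. Csrp3, muscle LIM protein, was at 10.30, 10.24 and 9.35 in the controls, 10.57, 10.70 and 9.80 with BMP4 and 9.84, 9.97 and 9.31 with GREM1. Both had GREM1 below control within each of the 3 numbers, by -0.29, -0.21 and -0.30 for Myot and by -0.46, -0.27 and -0.043 for Csrp3. They were the only 2 of 47 (4.26%) lower in all 3 numbers, against 22.5% of all genes, and 34 (72.3%) were higher in all 3, against 21.1%. Neither passed with GREM1 (adjusted p = 0.766 and 0.698, and 0.0606 and 0.121 with the block). The other Z-disc genes, Myoz1, Tcap, Xirp1 and Pdlim3, differed by 0.18 to 0.50 and did not pass.

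Filament assembly factors had a median of 0.45 over 5 genes. Beside Unc45b, Lmod2, which elongates thin filaments from their pointed end, was at 9.29, 9.93 and 8.86 in the controls, 9.99, 10.09 and 8.98 with BMP4 and 10.03, 10.11 and 9.47 with GREM1. The groups overlapped, and the rise of 0.51 passed with the block (adjusted p = 0.446 and 0.0488). Smyd1, a methyltransferase needed for myosin assembly, was at 7.85, 8.17 and 7.31 in the controls, 8.46, 8.56 and 7.65 with BMP4 and 8.25, 8.35 and 8.07 with GREM1. Both treatments overlapped the controls in Smyd1, with differences of 0.45 each. Lmod3 and Klhl41, which protect thin filaments, differed by 0.32 and 0.42 with GREM1.

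**Figure D4:**
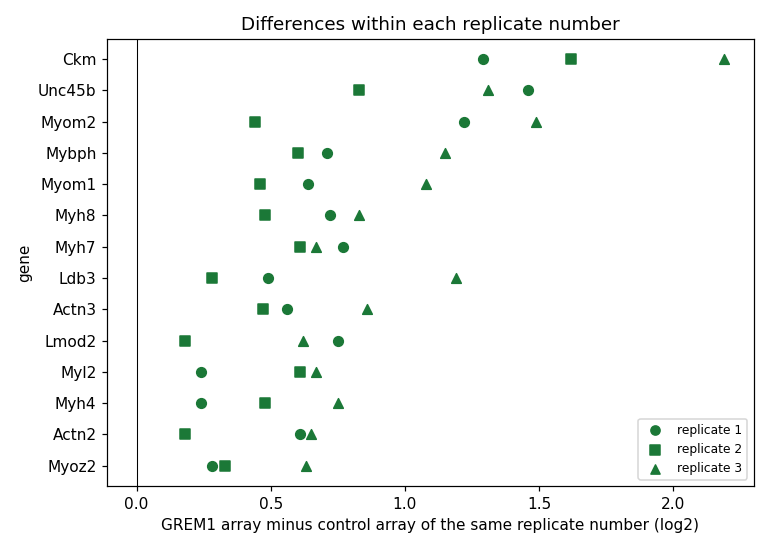
For each of the 14 genes that rose with the replicate block (vertical axis), the log2 difference between the GREM1 and control arrays of the same number (horizontal axis), with a marker shape for each of replicates 1 to 3. All 3 differences of each gene lie above 0, and those of Ckm are 1.29, 1.62 and 2.19.

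All 4 isoform classes had medians above 0 with GREM1. With BMP4 the embryonic, fast and slow medians were near 0, and that of the shared genes was 0.13. With GREM1 the median difference was 0.33 over 5 embryonic or neonatal isoforms, 0.25 over 11 of 12 adult fast isoforms and 0.41 over 9 of 10 slow isoforms. It was 0.33 over 22 genes placed in none of these classes, called shared here, among them Tpm1, Tpm2 and Tpm3. With the block 1, 3, 3 and 7 of them rose (20.0%, 27.3%, 33.3% and 31.8%, against 5.58% of all genes). The embryonic genes were Myh3, Myh8, Myl4, Actc1 and Tnnt2, all above 0, from 0.14 to 0.68. Fast genes ran from -0.098 (Myh2) to 1.05 (Myom2), and slow genes from -0.033 (Mybpc1) to 0.68 (Myh7). With BMP4 the class medians were 0.021, 0.013, 0.015 and 0.13. In the shared class 11 of 22 genes (50.0%, against 17.3% of all genes) were higher with BMP4 in all 3 numbers. Lower in all 3 was 1 (4.55%, against 16.9%). The median over all 47 genes was 0.25 without BMP4 replicate 3. A difference between classes was not tested.

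**Figure D5:**
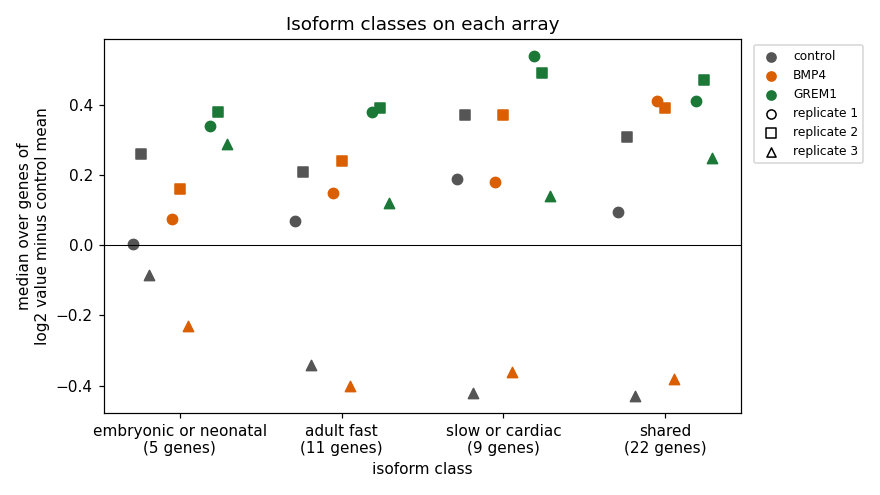
Median deviation from the control mean (log2) of each isoform class on each of the 9 arrays. Replicate 3 is lowest in every class among the controls and with BMP4, and all 4 classes lie above 0 on all GREM1 arrays.

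Other genes of the sarcomere formed a separate list, with 43 tested of 46 on the array. With GREM1 3 of the 43 rose (6.98%, against 2.07% of all genes) and 0 fell (against 2.21%). With the block 10 rose (23.3%, against 5.58%) and 0 fell (against 6.0%). The median difference was 0.19. Those past the test were Ankrd2, a stretch-responsive titin partner (1.02, adjusted p = 0.0171), Cap2, an actin-filament remodeller (0.85, 0.0182), and Trim55, a titin-binding ubiquitin ligase (0.72, 0.0479). Each lost its call without any 1 of the GREM1 arrays and without control replicate 1 or 3, which left 0 of the 43, with adjusted p up to 0.0736, 0.0753 and 0.141. With BMP4 0 of the 43 passed. Ankrd2 (-1.04), Cap2 (-0.75), Trim55 (-0.74) and the filamin Flnc (-0.69) were lower with BMP4 than with GREM1, and Nebl, nebulette, was higher (0.73, adjusted p = 0.0012). Ankrd2 and Nebl kept these calls under every alternative run.

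The non-muscle cytoskeleton had the opposite replicate pattern. Its median deviation from the control mean was highest in replicate 3, at 0.18, 0.32 and 0.26 in controls, BMP4 and GREM1. In replicate 1 it was lowest, at -0.20, 0.07 and 0.088. Replicate 3 was the lowest array for 10.5%, 21.1% and 5.26% of the 19 genes in controls, BMP4 and GREM1. Actn1, the non-muscle alpha-actinin, rose by 0.45 with GREM1 (adjusted p = 0.0312, up to 0.108 without single arrays), 1 of the 19 (5.26%, against 2.07% of all genes). With the block 4 of the 19 rose (21.1%, against 5.58%) and 1, the tropomodulin Tmod3 (-0.70), fell (5.26%, against 6.0%). Between the treatments Actn1 was lower with BMP4 (-0.43) and Tmod3 higher (0.92).

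Among regulators of muscle genes, Mef2a rose by 0.87 with GREM1 (adjusted p = 0.00602), Mef2d by 0.88 (0.0199) and Srf by 0.47 (0.0163). Mef2d and Srf lost the call without GREM1 replicate 1 or 2, among other single arrays, with adjusted p up to 0.0852 and 0.0666. Myog, the differentiation factor myogenin, was 0.90 above control (adjusted p = 0.0947) and passed with the block (0.0167). Going the other way, Myf5, a MyoD family factor of undifferentiated myoblasts, was at 7.40, 7.74 and 8.34 in the controls, 7.69, 7.91 and 8.41 with BMP4 and 6.58, 6.85 and 7.51 with GREM1. Its difference of -0.85 with GREM1 did not pass (adjusted p = 0.144) and passed with the block (9.74e-04). Of the 11 regulators 3 rose (27.3%, against 2.07% of all genes) and 0 fell (against 2.21%). With the block 4 rose (36.4%, against 5.58%) and 1 fell (9.09%, against 6.0%). At an unadjusted p under 0.05, 5 were higher and 2, Myf5 and Myf6 (-0.28), lower, against 1576 and 1845 of all 17142 genes. Mef2c (0.30) and Myod1 (0.27) did not pass, with or without the block. With BMP4 the differences of Mef2a, Mef2c, Mef2d, Srf, Myog and Myod1 were -0.012, 0.13, -0.20, 0.016, 0.32 and 0.42, and 0 passed. Mef2a (-0.88), Mef2d (-1.07), Srf (-0.45) and Tcf12 (-0.39), an E-protein partner of MyoD, were lower with BMP4 than with GREM1.

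Markers of other cells moved in part with GREM1. Smooth muscle and pericyte markers, 9 of 11 tested, had median deviations from control of -0.035 to 0.041 on control arrays. The deviations were 0.075 to 0.16 on GREM1 arrays and also 0.084 to 0.10 on BMP4 arrays. Acta2 (1.25, adjusted p = 0.021) and Tagln (0.80, 0.0447) rose, with adjusted p up to 0.0846 and 0.106 over the alternatives. With the block 4 of the 9 rose (44.4%, against 5.58% of all genes), also Smtn (0.30) and Lmod1 (0.56), and 0 fell. The 3 below 0 were Pdgfrb (-0.32, lower at an unadjusted p of 0.0113), Rgs5 (-0.20) and Cspg4 (-0.06). The part of these markers in the sarcomere differences was not tested. Among 9 myogenic markers Cdh15 (0.91), Itga7 (1.00), Cd82 (0.82) and Ncam1 (0.53, adjusted p up to 0.15 over the alternatives) rose with GREM1. The 4 that rose were 44.4% of the 9, against 2.07% of all genes. Below 0 were 3, Myf5, Pax7 (-0.20) and Vcam1 (-0.15), of which Myf5 fell with the block. Cdh15 (-1.23), Itga7 (-1.04), Cd82 (-1.18), Sdc4 (-0.50) and the smooth muscle marker Smtn (-0.41) were lower with BMP4 than with GREM1, and the pericyte marker Cspg4 was higher (0.56). Among fibroblast (5 of 9 tested), heart (6 of 8) and endothelial or leukocyte markers (5 of 8), 0 passed in limma with GREM1. At an unadjusted p under 0.05, 1, 1 and 0 of them were lower, against 1845 of all 17142 genes. With the block the collagen Col3a1 fell.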

How the data were processed

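The authors deposited log2 values, 1 column per array. The submitters' processing notes name RMA and Affymetrix Expression Console. RMA subtracts background, sets arrays to a common distribution and combines probes. RNA was amplified before labelling, per the labels' protocols. The sources used here name neither array model nor genome build. Of 24973 probe sets 24015 had 1 gene symbol. Per gene the probe set with the highest mean was used, and genes with at least 3 arrays above the 30th percentile of their array were tested. Differences were fitted over all 9 arrays with limma 3.58.1 in R 4.3.3 (lmFit, eBayes; 6 residual degrees of freedom, prior 3.47), two-sided, with Benjamini-Hochberg adjustment over 17142 genes and a threshold of 0.05. The fit was run on simulated data with independent arrays and the same spread in all groups. The replicate 3 pattern was not simulated. The number of arrays limits the precision.

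After removal of group means, same-numbered arrays correlated at 0.242, 0.118 and 0.473 between GREM1 and control. Between BMP4 and control they correlated at 0.341, 0.17 and 0.58. In the fit with the block the numbers were taken as pairs in both comparisons, and the fit without it used no pairs. Only replicate 3 stood clearly apart. Some arrays of unlike number correlated more than those of replicate 2, such as control 1 with GREM1 2 at 0.159. The labels state no pairing, so the pairs rest on these same data. Members and gene lists were chosen with earlier results of these data known. Every array value is given for members past the threshold with or without the block, and for the 2 with the smallest p in each role and isoform class. From the other lists, genes past the threshold are named, and Myod1, Myog, Mef2a, Mef2c, Mef2d and Srf. Promoters came from RefSeq. Alternatives were the replicate number as a block, only the groups compared, an intensity trend, array weights, renewed quantile normalization, median centring, no or a stricter filter, the mean of probe sets and each array left out.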

Additional observations from a re-analysis of the deposited data

How the results depend on the processing

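Counts of sarcomere genes past the threshold depended most on the replicate block, which raised GREM1 with control from 2 to 14, the other sarcomere genes from 3 to 10 and BMP4 with GREM1 from 3 to 16 (array weights gave 5). Leaving out 1 array gave 1 to 3, 0 to 6 and 1 to 3, and the block without 1 replicate number, chosen after seeing the data, 3 to 9 for GREM1 with control. Between BMP4 and GREM1 the same numbers correlated at 0.223, 0.088 and 0.423, and BMP4 1 with GREM1 2 at 0.232. They were not taken as pairs, although the block was a single fit over all 3 groups. With that block 14 genes, among them Tpm1 and Tpm3, were lower with BMP4 and 2, Myot and Csrp3, higher, where 12.8% of all genes passed. Median differences without 1 array ran from -0.094 to 0.25 for BMP4 with control, from -0.40 to -0.073 for BMP4 with GREM1 and from 0.22 to 0.47 for GREM1 with control. No difference changed sign and passed. With 3 arrays a group and a median SE of 0.22, small differences were not detectable.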
